A study of Mus musculus with 3 samples.

Results

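Serpins are proteins that trap a protease by offering it an exposed reactive centre loop as bait, and most of them inactivate their target by a one-way change of shape. A set of 9 genes of the family were followed here in cultured adult ventricular cardiomyocytes (ACMs), chosen by name from the count table, and all 9 were found among its 56748 genes and its 63 protein-coding serpin genes. Inhibitors inside the cell were represented by *Serpinb1a*, *Serpinb1b*, *Serpinb1c*, *Serpinb6a* and *Serpinb9*. The secreted ones were *Serpina3n*, *Serping1* and *Serpinf1*, and *Serpinh1* encodes HSP47, a collagen chaperone of the endoplasmic reticulum that inhibits no protease. *Serpina3n* is known as an acute-phase gene, a class of genes that cytokines of the IL-6 family switch on through STAT3 in liver and elsewhere. *Serpinb1a* is one of the mouse counterparts of the human inhibitor of neutrophil elastase, cathepsin G and proteinase 3.

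ACMs were isolated from wild-type mice aged 8 to 10 weeks and cultured in serum-free medium that held BSA, butanedione monoxime, insulin-transferrin-selenium and lipids. For 16 h they received vehicle, mouse oncostatin-M (OSM) at 10 ng/mL or human IL-6 at 10 ng/mL, all in that same medium. RNA samples were pooled before poly-A libraries were made, so each condition is 1 library, differences between animals or cultures cannot be estimated, and no P-value is given. The libraries held 24939980 counts with vehicle, 26362446 with IL-6 and 30773001 with OSM.

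The library contents were checked against cell type markers, as CPM (counts scaled to the library total) summed over each list. Cardiomyocyte markers summed to between 43779 and 48073 CPM. Of the 12 genes 2, the long transcripts *Ryr2* and *Ttn*, were called lower with OSM than with vehicle by the rule given below. Of all genes compared 5.43% were. Neutrophil markers lay between 0.0650 and 0.241 CPM with 7 of 10 at 0 in all libraries, and T and NK cell markers between 0.0802 and 0.152 CPM with 7 of 9 at 0. Fibroblast markers lay between 6.86 and 9.71 CPM, and mesothelial markers between 1.01 and 3.03 CPM. Macrophage markers lay between 6.98 and 8.46 CPM, with *C1qa*, *C1qb*, *C1qc* and *Fcgr1* at 0 throughout. Most of the macrophage sum was *Csf1r*, with 187 counts with vehicle, 166 with IL-6 and 209 with OSM. Endothelial markers lay between 42.3 and 45.4 CPM, and smooth muscle and pericyte markers between 36.5 and 44.4 CPM. Of the lists other than cardiomyocyte, the mesothelial one alone held calls against vehicle. *Krt19* was lower with OSM (18, 20 and 0 counts with vehicle, IL-6 and OSM) and *Msln* higher with IL-6 (1, 33 and 13). With OSM against IL-6, 2 fibroblast and 1 mesothelial marker were called lower, and 1 macrophage and 1 smooth muscle or pericyte marker higher. Sums can hide single genes, as fibroblast *Dcn* had 49, 48 and 131 counts and *Col1a2* 14, 41 and 6. The part of these cell types in the serpin ratios was not tested.

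Loop-coding stretches of related serpin genes are shown first, and the deposited counts were not derived from them. In each gene shown, the conserved hinge of the reactive centre loop was located in the GENCODE M39 transcript. The 75 coding bases from there were taken, in the direction of transcription. The hinge pattern searched for was not found in *Serpinb1c* or *Serpina3c*, so no stretch is shown for these paralogs. Capitals in the *Serpinb1b* line mark bases that differ from *Serpinb1a* at the same place, counted from the hinge without gaps. Capitals in the *Serpina3i* line mark those that differ from *Serpina3n* in the same way.
Serpinb1a: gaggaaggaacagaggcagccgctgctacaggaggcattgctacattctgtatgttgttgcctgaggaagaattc
Serpinb1b: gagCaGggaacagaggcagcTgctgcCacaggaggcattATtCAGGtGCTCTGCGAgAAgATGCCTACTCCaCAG
Serpina3n: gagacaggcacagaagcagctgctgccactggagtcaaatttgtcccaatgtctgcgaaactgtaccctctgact
Serpina3i: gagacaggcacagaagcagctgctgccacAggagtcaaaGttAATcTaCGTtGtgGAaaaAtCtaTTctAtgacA
On GRCm39 these lie on chr13:33026885-33026959 (minus strand, exon 7 of 7), chr13:33277750-33277824 (plus strand, exon 7 of 7), chr12:104379701-104379775 (plus strand, exon 5 of 5) and chr12:104234733-104234807 (plus strand, exon 6 of 6).

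Placed base by base from the hinge with no gaps, *Serpinb1b* differed from *Serpinb1a* at 35 of the 75 bases, or 53.3% identity. Of these, 4 were in the first 30 and 31 in the last 45. The whole coding sequence, loop included, was 89.7% identical in an alignment that allowed gaps, which is an unlike measure. The proteins have 379 (*Serpinb1a*) and 382 residues, with the hinge at codon 328 in both. Any gap within the stretch would put later bases out of register, which was not tested. The coding sequence of *Serpinb1c* was 88.2% identical to that of *Serpinb1a*. By the same unlike measures, *Serpina3i* and *Serpina3n* were 83.0% identical over the coding sequence and 76% over the loop stretch. The stretch had 18 differing bases, 1 in the first 30 and 17 in the last 45. No stretch of 150 bases, the read length, was shared between a transcript of *Serpinb1a*, *Serpinb1b*, *Serpinb1c*, *Serpina3n* or *Serpina3i* and a transcript of any other gene. At 50 bases, the share of windows found in other genes was 4.01% for *Serpinb1a*, 3.37% for *Serpinb1b* and 8.94% for *Serpinb1c*. It was 6.31% for *Serpina3n* and 16.5% for *Serpina3i*. At 100 bases it was 0.186% for *Serpina3n*, 2.24% for *Serpina3i* and 0 for the *Serpinb1* genes.

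Among the 9 genes, 2 were called higher with OSM than with vehicle, *Serpina3n* and *Serpinb1a*, and none was called lower. A gene was called where the whole 95% counting interval of its ratio of scaled counts (TMM factors of edgeR) lay beyond 2-fold, and genes with at least 10 counts over both libraries were compared. By that rule 3.74% of all 15537 genes compared were called higher and 5.43% lower. With IL-6 against vehicle none of the 8 members compared was called in either direction, where 1.77% of all genes were called higher and 1.74% lower. With OSM against IL-6, 3 of 9 members were called higher and none lower, against 4.24% and 5.42% of all genes. The vehicle library enters both cytokine comparisons and each library enters 2 of the 3, so the 3 comparisons are not independent. In pooled bulk RNA, fewer cells of a type and less RNA per cell cannot be told apart.

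**Figure D1:**
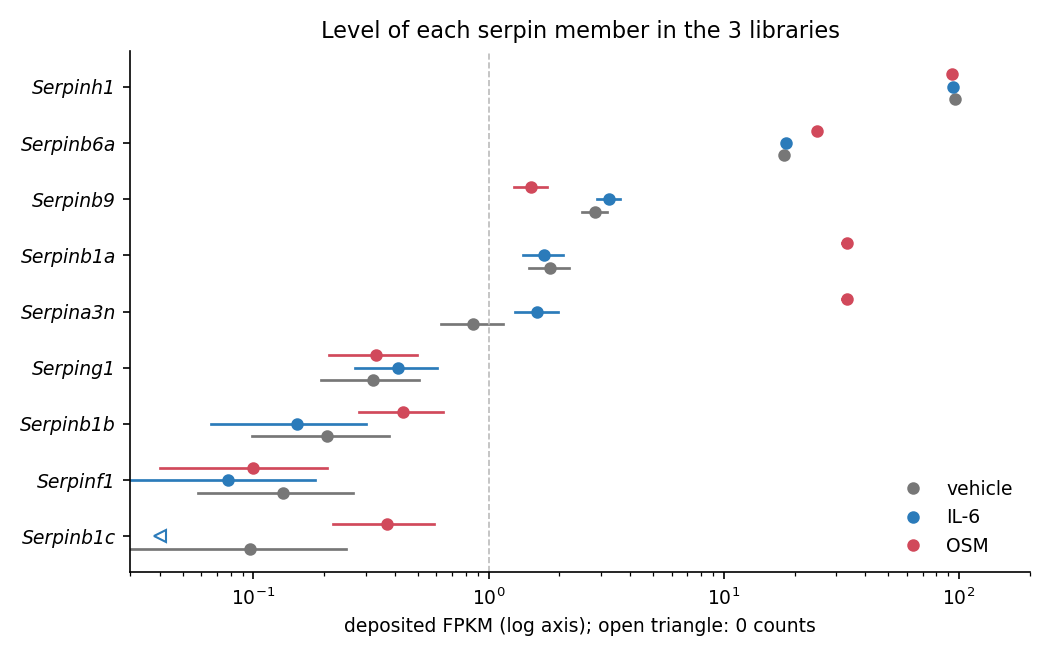
Deposited FPKM of the 9 serpin members on a log axis with vehicle, IL-6 and OSM. Points are the single libraries, bars their 95% Poisson counting intervals, the open triangle marks 0 counts and the dashed line 1 FPKM. *Serpina3n* and *Serpinb1a* with OSM stand apart to the right at 33.4 and 33.3 FPKM, while *Serpinh1* lies between 93.6 and 96.2 FPKM.

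*Serpina3n* (ENSMUSG00000021091, chr12:104372988-104380588, plus strand) encodes a secreted serine protease inhibitor related to human antichymotrypsin. It had 45 counts with vehicle, 90 with IL-6 and 2059 with OSM, or 0.862, 1.61 and 33.4 FPKM. The OSM library alone was far above the others. The log2 ratio of OSM to vehicle was 5.27 (95% interval 4.85 to 5.73), a 38.7-fold higher level, and that of OSM to IL-6 was 4.37 (4.07 to 4.70). IL-6 gave a log2 ratio to vehicle of 0.90 (0.37 to 1.45), above no change but not wholly beyond 2-fold. Among the 441 genes called higher with OSM that had any count with vehicle, *Serpina3n* ranked 8 by its ratio.

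*Serpinb1a* (ENSMUSG00000044734, chr13:33026075-33035168, minus strand) had 106 counts with vehicle, 107 with IL-6 and 2289 with OSM. These correspond to 1.82, 1.71 and 33.3 FPKM, so that per length *Serpinb1a* and *Serpina3n* reached nearly the same level with OSM from different levels with vehicle. The log2 ratio of OSM to vehicle was 4.19 (3.91 to 4.49), or 18.3-fold, and that of OSM to IL-6 was 4.28 (4.00 to 4.57). The vehicle and IL-6 libraries were alike within counting error, with a log2 ratio of -0.09 (-0.49 to 0.32). Of the 210 genes called higher with OSM that had at least 1 FPKM with vehicle, *Serpinb1a* ranked 5 by its ratio.

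The paralogs of *Serpinb1a* lie beside it on chromosome 13 and were near the limit of detection. *Serpinb1b* (chr13:33262558-33278363, plus strand) had 10 counts with vehicle, 8 with IL-6 and 25 with OSM, none of them above 0.435 FPKM. Its log2 ratio of OSM to vehicle was 1.08 with an interval from -0.03 to 2.30 that held no change. *Serpinb1c* (chr13:33065417-33082194, minus strand) had 4, 0 and 18 counts. Its log2 ratio of OSM to vehicle was 1.93 (0.33 to 3.95), and against a floor of 3 counts (0.114 CPM) for the 0 counts with IL-6, its level with OSM was at least 5.44-fold higher. That bound takes the 18 counts as exact, and the counting interval of the log2 ratio reached down to 1.99. Both point estimates were in the direction of *Serpinb1a*, but neither paralog met the call rule against vehicle. *Serpinb1a* made up 88.3% (exact binomial interval 81.2 to 93.5) of the counts of the 3 genes with vehicle, 93.0% (86.8 to 96.9) with IL-6 and 98.2% (97.5 to 98.7) with OSM. Summed, the 3 genes had 120, 115 and 2332 counts, a log2 ratio of OSM to vehicle of 4.04 (3.77 to 4.32).

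*Serpinb6a* (chr13:34101901-34186777, minus strand) encodes an intracellular protease inhibitor. It had 2469 counts with vehicle, 2706 with IL-6 and 4020 with OSM, or 18.0, 18.5 and 24.9 FPKM. The interval of its log2 ratio of OSM to vehicle, 0.46 (0.39 to 0.53), lay above no change and within 2-fold, and that of IL-6 to vehicle, 0.03 (-0.05 to 0.11), held no change. It was the one member whose span overlapped other genes, all 3 on the opposite strand. These were *Nqo2* with 541 to 557 counts, *Ripk1* with 149 counts with vehicle and 271 with OSM, and 1110046J04Rik with 26 to 33. Whether the counting used the strand is not stated in the paper or the processing notes, so reads of these genes and of *Serpinb6a* cannot be told apart where they overlap.

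*Serpinb9* (chr13:33187233-33201940, plus strand), whose product is known to inhibit granzyme B, had a lower level with OSM. Its counts were 250 with vehicle, 307 with IL-6 and 158 with OSM, or 2.83, 3.24 and 1.51 FPKM. The log2 ratio of OSM to vehicle was -0.90 (-1.20 to -0.61), and that of OSM to IL-6 was -1.10 (-1.39 to -0.82). Both intervals lay below no change and both crossed 2-fold, so neither was a call. *Serpinb9* and *Serpinb1a* thus had opposite directions with OSM, with their gene starts 152.1 kb apart.

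*Serpinh1* (chr7:98994583-99002446, minus strand) was the most abundant serpin per length in every library. It had 5945 counts with vehicle, 6222 with IL-6 and 6828 with OSM, or 96.2, 94.0 and 93.6 FPKM. The log2 ratio of OSM to vehicle was -0.04, and its interval of -0.09 to 0.01 was the narrowest among the members. The secreted inhibitor *Serping1* (chr2:84595731-84605788, minus strand), the C1 inhibitor of the complement and contact systems, had 19, 26 and 23 counts, or 0.323, 0.413 and 0.331 FPKM. *Serpinf1* (chr11:75300595-75313527, minus strand), which encodes the anti-angiogenic factor PEDF, had 8, 5 and 7 counts. Their log2 ratios of OSM to vehicle were 0.03 (-0.91 to 0.99) and -0.43 (-2.13 to 1.22), so changes of 2-fold were not detectable at this depth for *Serpinf1*.

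**Figure D2:**
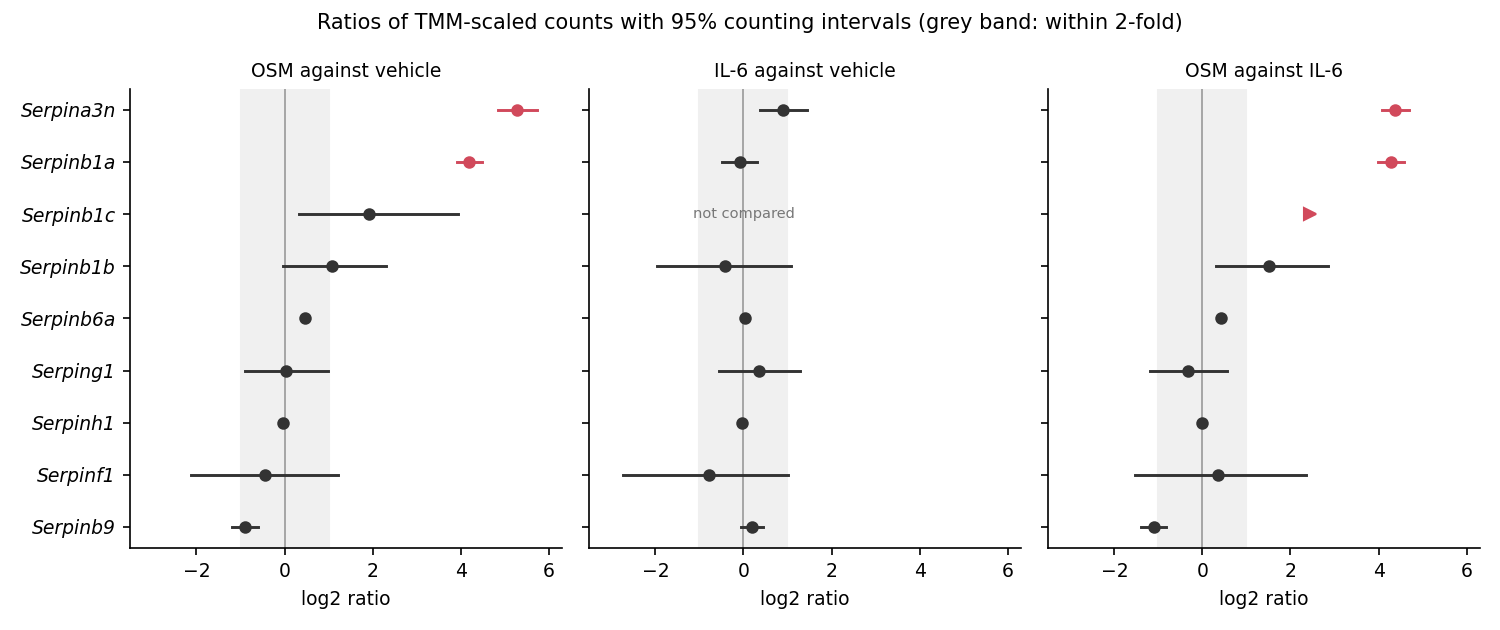
Log2 ratios of TMM-scaled counts for the 9 members in the 3 pairs of libraries. Points are the ratios, bars the 95% counting intervals, the grey band is within 2-fold, red marks called genes and the triangle a lower bound for a gene at 0 counts with IL-6. *Serpina3n* (5.27) and *Serpinb1a* (4.19) lie to the right of the band with OSM against vehicle, and no member lies wholly outside it with IL-6.

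By level per length the order with vehicle was *Serpinh1*, *Serpinb6a*, *Serpinb9*, *Serpinb1a*, *Serpina3n*, *Serping1*, *Serpinb1b*, *Serpinf1* and *Serpinb1c*. *Serpinh1* alone made up 61.4% of the FPKM summed over protein-coding serpins with vehicle, 60.7% with IL-6 and 38.8% with OSM. The share of *Serpina3n* was 0.550%, 1.04% and 13.8%, and that of *Serpinb1a* 1.16%, 1.11% and 13.8%, while *Serpinb6a* held 11.5%, 11.9% and 10.3%. The sum itself was 157 FPKM with vehicle, 155 with IL-6 and 241 with OSM. The counting intervals of *Serping1*, *Serpinb1b*, *Serpinf1* and *Serpinb1c* all overlapped with vehicle, and their order is not resolved. With OSM the order was *Serpinh1*, *Serpina3n*, *Serpinb1a*, *Serpinb6a*, *Serpinb9*, *Serpinb1b*, *Serpinb1c*, *Serping1* and *Serpinf1*, in which *Serpina3n* and *Serpinb1a* did not differ beyond counting error, nor did *Serpinb1b*, *Serpinb1c* and *Serping1*.

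The ratios of OSM to vehicle varied with the gene length given with the counts, which bears on those of the members. Of the 500 protein-coding genes nearest in length to each member, with a mean of at least 100 counts, the median log2 ratio of OSM to vehicle was between 0.28 and 0.43 for 7 of the members, 0.13 for *Serpinb9* and -0.09 for the longer *Serpinb6a*, beside 0.0046 for all genes compared. Minus these medians, the log2 ratio was 4.93 for *Serpina3n*, 3.92 for *Serpinb1a*, 0.55 for *Serpinb6a*, -0.32 for *Serpinh1* and -1.03 for *Serpinb9*. The direction and call of *Serpina3n* and *Serpinb1a* were the same with and without this step.

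Of the 63 protein-coding serpin genes 37 were at 0 counts in all 3 libraries, and 20 were above 3 counts in at least 1. Among the 54 outside the chosen set, none was called higher with OSM against vehicle and 2 were called lower (20%), of 10 compared. Over all genes compared, 3.74% were called higher and 5.43% lower. With upper-quartile factors in place of TMM, 3 instead of 2 of all protein-coding serpins were called higher. *Serpina3c*, a close relative of *Serpina3n*, had 90 counts with vehicle, 138 with IL-6 and 22 with OSM, a log2 ratio of OSM to vehicle of -2.27 (-3.02 to -1.59). *Serpinb8* had 40, 9 and 4 counts, and was lower than with vehicle both with OSM, at -3.56 (-5.51 to -2.10), and with IL-6, at -2.25 (-3.48 to -1.19). *Serpini1*, which encodes neuroserpin, had 32, 0 and 18 counts. Against the same floor, and with the other counts taken as exact, its level with IL-6 was at least 11.4-fold lower than with vehicle. On the same basis its level with OSM was at least 5.44-fold higher than with IL-6. The ends of the counting intervals nearest to no change were -3.13 and 1.99 on the log2 scale. Both *Serpinb8* and *Serpini1* were at 0.330 FPKM or less throughout.

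*Serpina3i* had 58, 65 and 157 counts with a ratio of OSM to vehicle of 1.20 (0.75 to 1.66) on the log2 scale. *Serpinb6b* had 571, 572 and 363 counts with a log2 ratio of -0.90 (-1.09 to -0.70), opposite in sign to that of *Serpinb6a*. *Serpina9* had 132, 96 and 141 counts with a log2 ratio of OSM to vehicle of -0.15 (-0.50 to 0.21).

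**Figure D3:**
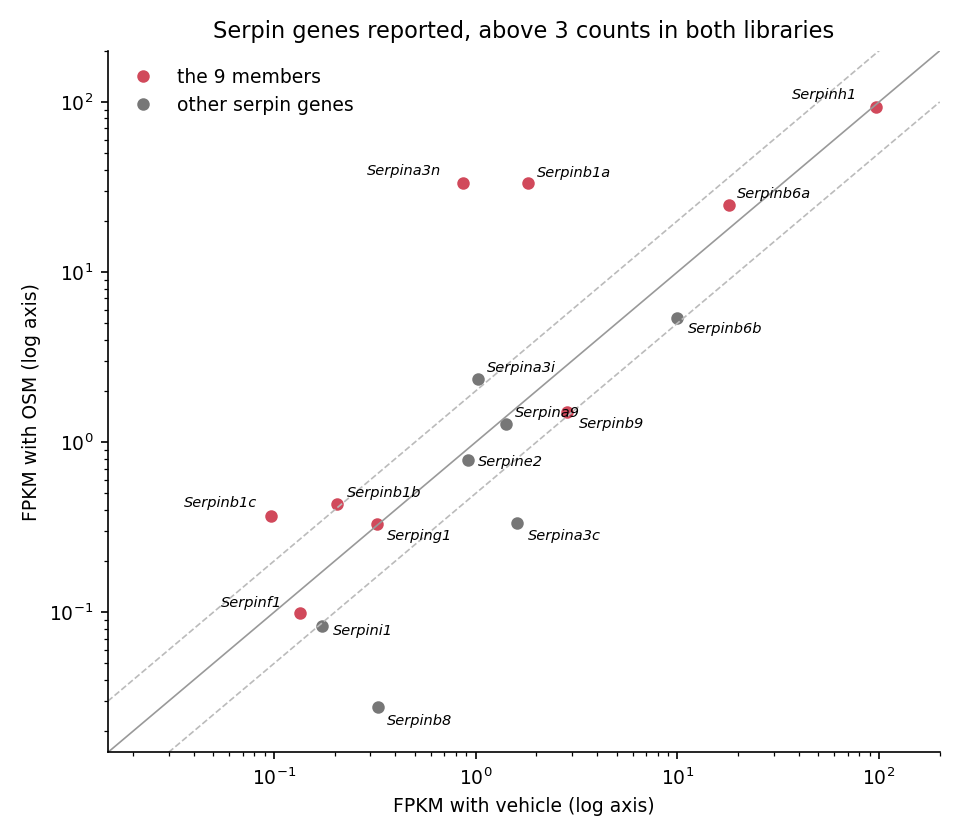
FPKM with OSM against FPKM with vehicle, both on log axes, for 16 protein-coding serpin genes above 3 counts in both libraries. Red points are members, grey points the others, the solid line is equality and dashed lines 2-fold. *Serpina3n* and *Serpinb1a* lie far above the upper dashed line, and *Serpina3c* and *Serpinb8* below the lower one.

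The directions were mixed within each gene cluster. Clade B genes on chromosome 13 number 16 over 1160.7 kb, of which 8 were at 0 counts in every library. *Serpinb1c*, *Serpinb6b*, *Serpinb9* and *Serpinb1b* start 47.0, 114, 152.1 and 227 kb from *Serpinb1a*, with log2 ratios of OSM to vehicle of 1.93, -0.90, -0.90 and 1.08. The 10 protein-coding *Serpina3* genes lie within 302 kb on chromosome 12, and 6 were at 0 counts throughout. *Serpina3n*, *Serpina3i* and *Serpina3c* had ratios of 5.27, 1.20 and -2.27 on the log2 scale. *Serpina3n* made up 23.3% (17.5 to 29.9) of the counts of these 10 genes with vehicle, 30.7% (25.5 to 36.3) with IL-6 and 91.9% (90.7 to 93.0) with OSM. Their sum was 193, 293 and 2240 counts.

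**Figure D4:**
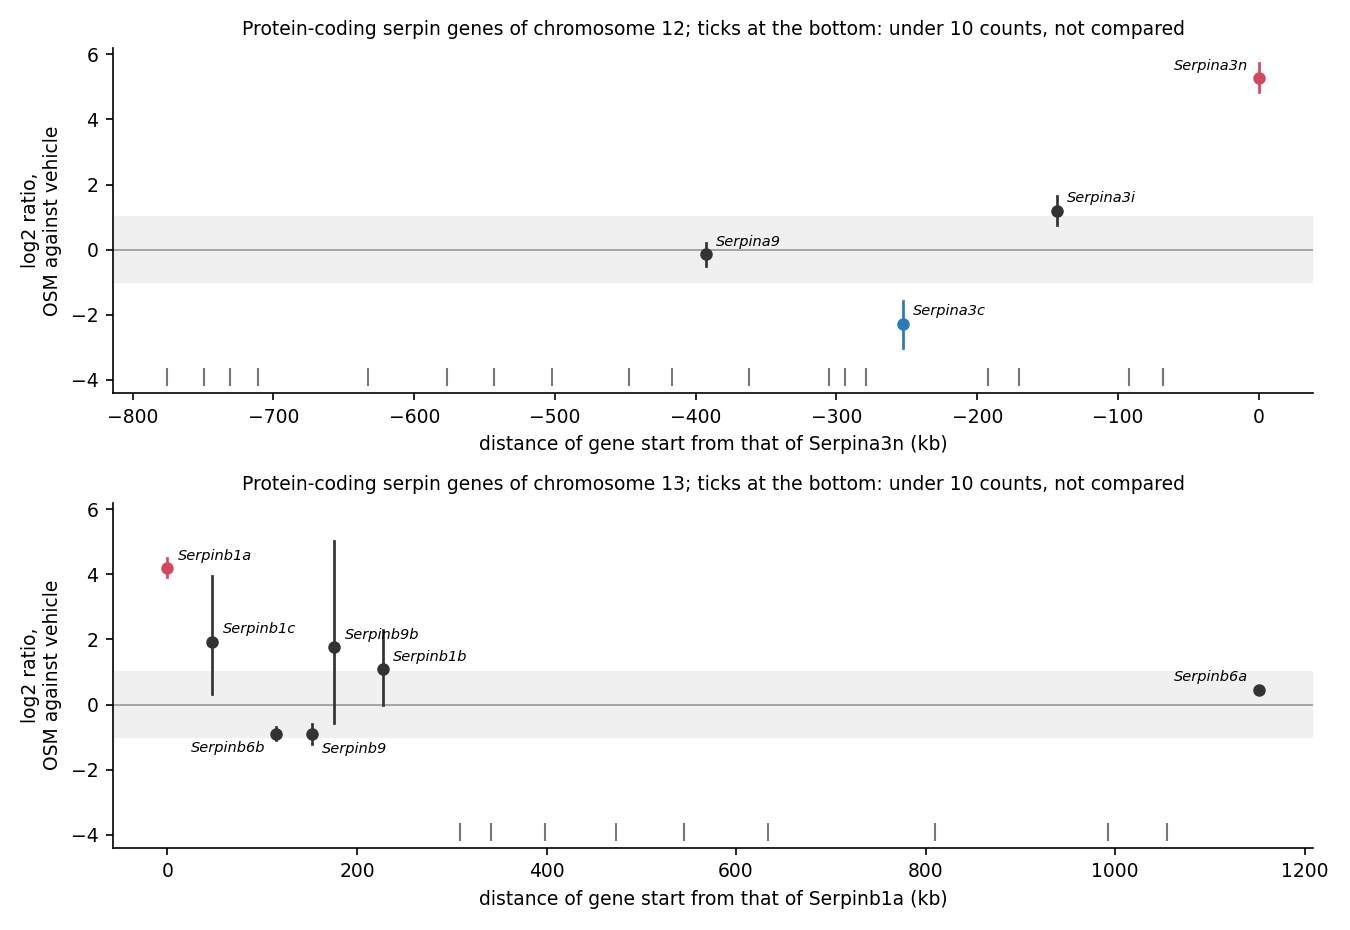
Log2 ratio of OSM to vehicle for protein-coding serpins of chromosome 12 (top) and chromosome 13 (bottom), against the distance in kb of the gene start from that of *Serpina3n* or *Serpinb1a*. Bars are 95% counting intervals, red genes were called higher, blue lower, and ticks at the bottom are genes under 10 counts. In each cluster 1 gene lies above 4 and its neighbours spread on both sides of 0.

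Upstream sequence was examined for letters of the STAT site TTCNNNGAA because OSM is known to signal through STAT3. RefSeq promoters (GRCm38.p6 table, 250 bases before the start and 50 after) were found for 7 of the 9 members, and each matched GRCm39 once. None was found for *Serpinb1a* and *Serping1*, so neither was searched. The 250 bases before the start are shown for *Serpina3n*, the member with the highest ratio, for its paralog *Serpina3i* and for the outer start of *Serpinb6a*, with matches in capitals.
Serpina3n: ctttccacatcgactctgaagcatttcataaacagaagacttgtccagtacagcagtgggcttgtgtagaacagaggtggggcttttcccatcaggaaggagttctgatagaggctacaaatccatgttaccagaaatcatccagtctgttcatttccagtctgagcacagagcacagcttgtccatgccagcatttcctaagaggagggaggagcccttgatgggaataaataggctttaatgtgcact
Serpina3i: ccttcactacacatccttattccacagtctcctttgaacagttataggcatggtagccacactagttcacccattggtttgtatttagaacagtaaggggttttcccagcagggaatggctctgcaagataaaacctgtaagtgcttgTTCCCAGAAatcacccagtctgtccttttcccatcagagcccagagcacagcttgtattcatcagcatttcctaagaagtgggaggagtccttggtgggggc
Serpinb6a: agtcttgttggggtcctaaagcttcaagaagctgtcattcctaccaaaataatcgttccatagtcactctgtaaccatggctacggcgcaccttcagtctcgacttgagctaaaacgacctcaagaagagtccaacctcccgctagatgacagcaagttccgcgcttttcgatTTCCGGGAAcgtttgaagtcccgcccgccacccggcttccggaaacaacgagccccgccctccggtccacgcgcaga
They lie on GRCm39 at chr12:104372717-104372966 (plus strand), chr12:104229131-104229380 (plus strand) and chr13:34186778-34187027 (minus strand).

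Searched on both strands, which for this palindrome give the same places, the letters occurred in 8.30% of 32851 promoters of the same length. *Serpina3i* had 1 match, whose first base lay at -102 from the start. *Serpinb6a* had 2 at that start, at -77 and at 20 past it, and none at its inner start. *Serpina3n*, *Serpinb1b*, *Serpinb1c*, *Serpinb9*, *Serpinf1* and *Serpinh1* had none in this window. The upstream stretches of *Serpina3n* and *Serpina3i* were 60.1% identical. That of *Serpina3c*, which was called lower with OSM, is visibly closer to *Serpina3n* and held no match either. Its identity was not computed. A heat shock element, looked for because HSP47 is heat-inducible, occurred in 0.603% of promoters and in none of those of the members.

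Genes that serpins act on or work beside were read as lists. Of 38 protease targets 10 had enough counts to compare OSM with vehicle, and 1 was called higher (10%, where 3.74% of all genes were). That gene was *St14*, which encodes the membrane protease matriptase, with 2, 18 and 46 counts and a log2 ratio of 4.28 (2.35 to 7.37). *St14* was also called higher with IL-6 than with vehicle, at 3.07 (1.01 to 6.22), and both calls rest on the same 2 counts with vehicle. It was the 1 target called higher with IL-6 of 11 compared (9.09%), where 1.77% of all genes were. Its log2 ratio of OSM to IL-6, 1.21 (0.40 to 2.09), was not a call. None of the 10 granule proteases that *Serpinb1a*, *Serpina3n* and *Serpinb9* are known to inhibit, or that belong to the same class, could be compared. *Elane*, *Ctsg*, *Gzma* and *Gzmb* were at 0 counts in all 3 libraries, and *Prtn3* had 0, 1 and 6. Among the cysteine cathepsins, *Ctsb* had 20048, 21264 and 30520 counts with a log2 ratio of OSM to vehicle of 0.36 (0.34 to 0.39), and *Ctsl* had 6400, 6904 and 6657 with -0.18 (-0.23 to -0.14). *Plau*, the urokinase gene, had 32, 0 and 42 counts. With the 32 counts taken as exact, it was at least 11.4-fold lower with IL-6 than with vehicle against the floor of 3 counts. The counting interval of that log2 ratio reached up to -3.13.

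The 7 receptors that bind serpins or serpin-protease complexes held no call in any pair. *Lrp6* had 1942, 2152 and 1175 counts, a log2 ratio of OSM to vehicle of -0.97 (-1.07 to -0.86), and *Vldlr* had 4982, 5325 and 3081 counts, with -0.93, neither wholly beyond 2-fold. *Pnpla2*, the lipase that PEDF is known to bind, had 11214, 11956 and 14457 counts. Other protease inhibitors gave no call among 10 compared of 22, with a median log2 ratio of 0.30. Of all genes, 3.74% were called higher and 5.43% lower with OSM against vehicle. *Cst3*, the cystatin C gene, had 10406, 10885 and 18347 counts and a log2 ratio of 0.58 (0.54 to 0.61).

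Genes that share the work of HSP47 were called lower with OSM at about the share of all genes, 5.43%. Of 27 genes of collagen processing 23 were compared, with a median log2 ratio of OSM to vehicle of 0.08 and 1 call (4.35%), *P3h2*, a prolyl 3-hydroxylase, lower with 62, 61 and 21 counts at -1.80 (-2.59 to -1.07). Of 15 collagen chains 13 were compared, with a median of 0.45 and 1 call (7.69%), *Col6a1*, lower with 18, 17 and 0 counts. The basement membrane chains *Col4a1* and *Col4a2* had 3649, 3577 and 6284 and 3684, 4356 and 5938 counts, with log2 ratios of 0.54 (0.48 to 0.60) and 0.45 (0.39 to 0.51). Among 11 heat shock chaperones, read beside *Serpinh1*, 1 was called higher (9.09%), where 3.74% of all genes were. It was the small heat shock protein gene *Hspb1*, with 9114, 9835 and 48143 counts and a log2 ratio of 2.16 (2.13 to 2.19). The median over these chaperones was 0.26, and over all genes compared it was 0.0046. The medians of the lists were not adjusted for gene length.

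**Figure D5:**
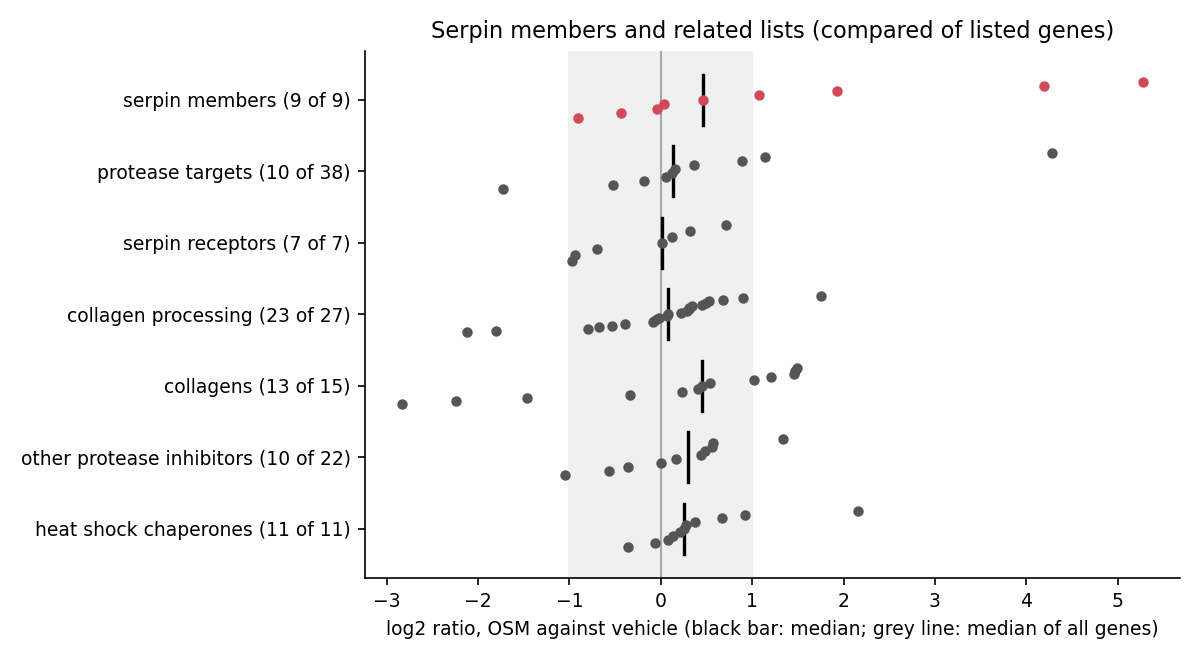
Log2 ratios of OSM to vehicle for the serpin members (red) and 6 related lists (grey points), with each list's median as a black bar, the median of all genes as a grey line and 2-fold as a grey band. Numbers in brackets are genes compared of genes listed. The 2 highest members lie at 5.27 and 4.19, and the medians of all lists lie within the band.

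The genes with the pair of ratios most like those of the called members were found over the 3 libraries, by distance in the plane of the log2 ratios of OSM and IL-6 to vehicle, among 9440 protein-coding genes with a mean of at least 100 counts. Nearest to *Serpina3n* were *Cd24a* with 17, 36 and 703 counts, *P2ry6* with 6, 15 and 347 and *Sec1* with 19, 24 and 794. *Cd24a* encodes a surface glycoprotein and *P2ry6* a receptor for UDP. Nearest to *Serpinb1a* were *Rnf122* with 161, 137 and 3193 counts, *Socs3*, the feedback inhibitor of JAK-STAT signaling, with 670, 646 and 18194, and *Anxa2*, an annexin, with 395, 334 and 6813. Their log2 ratios of OSM to vehicle were 4.07, 4.52 and 3.87.

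Low counts in these libraries were more often even than odd. With vehicle 63.3% of counts from 1 to 10 were even, with IL-6 62.4% and with OSM 65.2%, and 1187 genes had 2 counts with vehicle where 775 had 1. From 51 to 200 counts the even share was 49.5%, 49.9% and 50.3%. Where both mates of a pair are counted, intervals computed from these counts are too narrow, and whether that was so here was not tested. With all counts halved before the intervals were computed, *Serpina3n*, at 4.67 to 5.95, and *Serpinb1a*, at 3.79 to 4.62, were still called higher with OSM than with vehicle, and *Serpina3c* and *Serpinb8* were still called lower. The calls of *Serpinb1c* and *Serpini1* with OSM against IL-6 were lost, as were those of *Serpinb8* with IL-6 and of *P3h2* with OSM against vehicle.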

How the data were processed

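RNA from cultured ACMs was sequenced as paired 150-base reads, 1 pooled library per condition, and libraries were grouped by their labels. The submitters' processing notes list fastp, HISAT2 2.2.1, featureCounts 2.0.6, edgeR 4.0.16 and mm39, and the paper gives another featureCounts and edgeR release. The authors deposited whole-number counts per gene and, for the same genes, FPKM values. Neither the paper nor these notes state whether counting used the strand.

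TMM factors (edgeR 4.0.16, R 4.3.3) were computed for each pair of libraries. Ratios carry 95% Clopper-Pearson intervals of the pair of counts, levels Poisson intervals and shares exact binomial ones. All cover counting error only, so a call compares libraries, not conditions. Genes were compared at 10 or more counts over the pair and called beyond 2-fold, with a floor of 3 counts per library (0.120 CPM with vehicle, 0.114 with IL-6, 0.0975 with OSM). Code was tested on simulated data. The order of levels between genes was taken from FPKM, while shares of paralogs are shares of counts, not corrected for length.

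The members and gene lists were chosen with earlier results of these data known. Named are the members, other serpins with 1 FPKM or a call, up to 4 called genes per list with the largest ratio, and the 3 genes nearest to each called member. List genes without a call, genes read as overlaps or markers, and serpins named in plots or in the closing observations alone were named after their values were seen. A serpin gene that the rule names is not reported here and is left out of the plot of levels with OSM against vehicle.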

Additional observations from a re-analysis of the deposited data

How the results depend on the processing

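No paired analysis was possible because each condition is 1 library, and for the same reason no replicate could be left out. Alternatives were DESeq2 1.42.0 size factors, total counts, upper-quartile factors, ratios of FPKM, a prior count of 2, thinning to 24939980 counts, other call rules and filters, a length adjustment, TPM in place of FPKM and, added after seeing the data, halved counts and the *Serpina3* sum. No result was reversed under any of them. Scaling moved the median of all genes by -0.0817 to 0.0314 on the log2 scale, and *Serpina3n* ranged from 5.21 to 5.31 and *Serpinb1a* from 4.13 to 4.22 (OSM against vehicle) without the length adjustment.

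With intervals beyond no change as the call rule, 4 of 9 members were called higher and 1 lower with OSM against vehicle. Of all 15537 genes compared, 5186 were higher and 5137 lower by that rule. With IL-6 against vehicle 1 of 8 members was higher (*Serpina3n*) and none lower, beside 3028 and 2953 of 15472 genes. With OSM against IL-6, 5 of 9 were higher and 1 lower, beside 5160 and 5156 of 15544 genes. With the ratio alone beyond 2-fold, 4 members were higher with OSM against vehicle and 1 lower with OSM against IL-6. The share of all genes under that last rule is not given here. At 50 counts or more, calls among all serpins went from 2 to 1 lower (OSM against vehicle), 2 to 0 lower (IL-6 against vehicle) and 5 to 3 higher (OSM against IL-6), and calls among the related lists from 2 to 1 higher and 2 to 1 lower, 1 to 0 higher and 2 to 0 lower, and 2 to 1 higher and 2 to 0 lower for these pairs. Halved counts left 1 lower call among all serpins with IL-6 against vehicle and 2 higher with OSM against IL-6. In the related lists they left 1 lower with OSM against vehicle, and 0 higher and 1 lower with IL-6 against vehicle. Over all genes they left 337 of 581 higher and 487 of 844 lower calls with OSM against vehicle, 43 of 274 and 66 of 269 with IL-6 against vehicle, and 358 of 659 and 462 of 843 with OSM against IL-6. These filters and halved counts lose calls by construction, since fewer genes or counts enter.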

Other observations

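Serpin pseudogenes counted for little. Of 6 in the table, *Serpina3d-ps*, within the *Serpina3* cluster, had 13 counts with vehicle, 9 with IL-6 and 6 with OSM, and *Serpina3h*, listed as a pseudogene, had 0, 1 and 4. Serpins of the liver, such as *Serpinc1*, which encodes antithrombin, had 2, 2 and 9 counts, and *Serpind1*, the heparin cofactor gene, had 0, 0 and 2. The clade B genes of chromosome 1, known from epithelia and from activated macrophages, were at 0 in all libraries for 10 of 12, with *Serpinb2* at 0, 0 and 2 counts beside *Serpinb8* above.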
